A study of Mus musculus with 209 samples.

Results

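The 4 Janus kinase genes Jak1, Jak2, Jak3 and Tyk2 and the genes of 2 phosphatases that act on them, Ptpn1 and Ptpn2, were followed across sorted mouse immune cells. They were chosen by symbol, and all 6 were found among the 55011 genes of the count table. Janus kinases are tyrosine kinases bound to the inner part of cytokine receptors. When a cytokine brings receptor chains together, the kinases phosphorylate each other, the receptor and then STAT transcription factors, which move to the nucleus. Jak1, Jak2 and Tyk2 serve many receptors in most tissues, whereas Jak3 serves the common gamma chain of lymphocyte growth factor receptors. Ptpn1 encodes PTP1B, known to act on Jak2 and Tyk2, and Ptpn2 encodes TC-PTP, known to act on Jak1, Jak3 and STATs. The IL6 receptor signals through Janus kinases, while the receptors of IL1b and TNFa do not bind them.

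The 209 libraries were made from C57BL/6J mice aged 5 to 8 weeks, each from 1000 cells sorted a second time into lysis buffer. In the screen, each mouse received an intravenous injection of 120 µL PBS, alone or with 5 µg of 1 of the cytokines IL1b, IL6 and TNFa, and cells were taken at 2 h. It held 66 libraries from PBS, 37 from IL1b, 39 from IL6 and 41 from TNFa, over 14 cell types. From the peritoneal cavity came MFpc (macrophages) and MC (mast cells). The titles give spleen for the myeloid types MFrp (red pulp macrophages), Mo.6C+ (monocytes with Ly6C), GN (neutrophils), DC.8+ (dendritic cells with CD8) and pDC (plasmacytoid dendritic cells). They give it too for the lymphocytes NK, Tgd (gamma-delta), Treg (regulatory), T.4 and T.8 (CD4 and CD8 T cells), MZB (marginal zone) and B.fo (follicular B cells). The tissue label of 158 of these libraries names the peritoneal cavity, and the titles were followed. There were 4 or 5 PBS libraries per type and usually 3 per cytokine. Groups of 2 were IL1b in DC.8+ and in MC, TNFa in T.8, and IL6 in B.fo, in NK and in MC, and pDC had no IL1b group. A time course (20 libraries, 2 per group) followed TNFa at 2, 4, 8 and 24 h in Mo.6C+ and MFpc, with PBS at 24 h only. In a separate experiment (6 libraries), Mo.6C+ were taken after 1 ng of LPS in 120 µL or after PBS, 3 libraries each, at a time the labels do not give.

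Totals ran from 1094567 to 9291121 counts in the screen, 4542850 to 6991234 in the time course and 3135795 to 5690241 with LPS. With PBS, the mean log2 level of each type's own 5 or 6 markers was higher in all of its libraries than in any library of another type. Among the cytokine libraries, DC.8+ TNFa 2 and 3 held their own markers at 6.587 and 6.409, below T.8 PBS 1 (7.011). The libraries picked for RNA of other cells were MFrp PBS 1, 2 and 3 (haemoglobin genes), DC.8+ PBS 4 and IL1b 2 (red cell genes), DC.8+ PBS 5, IL6 3 and TNFa 2 (NK genes), MC IL6 3 (T cell genes), and NK IL1b 1 and Tgd IL1b 1 (B cell genes). These were left out together, by type and kind of foreign RNA, as an alternative. The pick was not complete. DC.8+ TNFa 3 had an NK marker sum (299.4 CPM) close to that of TNFa 2 (307.2), and MFrp TNFa 2 had a red cell marker sum of 10000 CPM. NK markers summed to 1374 CPM in MFrp PBS 5 and 866.5 in MFrp IL1b 1. Follicular B cell markers summed to 989.5 in pDC PBS 3, and DC.8+ markers to 844.9 in T.8 PBS 1. Such libraries were left out only singly. Depth did not overlap with that of PBS for IL6 in B.fo, DC.8+, GN and T.4, TNFa in B.fo and T.8 and IL1b in GN, all deeper, nor for IL1b in MFpc, which was shallower. In B.fo the gap was largest, with 6553203 to 9291121 counts with IL6 and 6872067 to 8014028 with TNFa against 2555640 to 4485774 with PBS. The labels leave unsaid if replicate libraries are from different mice, so p-values measure the spread between libraries only. A lower level in a sorted pool can come from fewer expressing cells or from less RNA per cell, which cannot be told apart.

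The upstream sequences of Jak2, Jak3 and Tyk2 are shown because the results on the kinases turn mostly on these 3 genes. Jak2 lies on chromosome 19 (chr19:29251828-29313080, plus strand), Jak3 on chromosome 8 (chr8:71676296-71690575, plus strand) and Tyk2 on chromosome 9 (chr9:21104068-21131243, minus strand) in GRCm38. Jak1 (chr4:101152367-101265282, minus strand) and Ptpn1 (chr2:167932057-167979385, plus strand) have their sequences left out. The letters run 5′ to 3′ on the gene's strand toward the RefSeq start site (GRCm38.p6) and stop at the edge of the GENCODE vM21 gene model, and capitals mark CG pairs.
Jak2 (chr19:29251553-29251802, 250 bases): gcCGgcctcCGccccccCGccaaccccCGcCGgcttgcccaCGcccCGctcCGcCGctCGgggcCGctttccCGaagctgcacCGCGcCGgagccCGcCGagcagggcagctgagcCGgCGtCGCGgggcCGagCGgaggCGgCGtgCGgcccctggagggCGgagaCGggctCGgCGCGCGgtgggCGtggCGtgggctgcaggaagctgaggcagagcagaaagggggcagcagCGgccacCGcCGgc
Jak3 (chr8:71676133-71676295, 163 bases): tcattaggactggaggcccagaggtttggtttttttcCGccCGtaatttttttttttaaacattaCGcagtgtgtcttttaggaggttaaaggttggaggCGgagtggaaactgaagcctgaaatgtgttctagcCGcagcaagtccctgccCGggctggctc
Tyk2 (chr9:21131276-21131525, 250 bases): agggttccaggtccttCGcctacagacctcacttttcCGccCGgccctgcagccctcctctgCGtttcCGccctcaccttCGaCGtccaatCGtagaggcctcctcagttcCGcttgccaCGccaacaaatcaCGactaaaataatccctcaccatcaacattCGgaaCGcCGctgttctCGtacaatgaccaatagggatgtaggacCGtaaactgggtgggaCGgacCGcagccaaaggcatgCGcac

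The capitals crowd the Jak2 sequence and are sparse in that of Jak3. The 250 bases before the start of Jak2 held 37 CG pairs and were 80.8% G or C. Those of Jak3 held 8 pairs at 52.4%, and those of Tyk2 held 19 pairs at 57.2%. Over 32536 such windows of all genes the medians were 6 pairs and 52.4%. A STAT motif (TTCNNNGAA), an IRF motif (GAAA, any 2 bases, GAAA) and the NF-kB motif were searched on both strands. No match was found in the windows of Jak1, Jak2, Jak3, Tyk2 or Ptpn1. These letters occurred in 7.04%, 2.98% and 7.28% of all windows. The absence says only that these letters are not in these 250 bases.

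Before any cytokine, each of the genes had its own order of levels over the 14 cell types. Levels are counts scaled to library size (CPM) after TMM scaling, given as mean ± SD over 4 or 5 PBS libraries, in a fit of all 66 PBS libraries. Jak1, which pairs with most of the receptor families, was highest in NK (2294 ± 95.8), and no library of another type reached the lowest NK library. Then came GN (1632 ± 184.9), T.4 (1306 ± 124.6), Tgd (1304 ± 151.7), T.8 (1273 ± 188.3), Treg (918.8 ± 220.2) and B.fo (859.6 ± 104.4), each overlapping the next in this order. All B.fo libraries exceeded those of MFrp (510.1 ± 100.7). MZB (476.4 ± 44.48), Mo.6C+ (423.4 ± 42.7), MC (420.3 ± 17.28), MFpc (403.1 ± 24.52), DC.8+ (338.2 ± 31.83) and pDC (292.5 ± 37.48) came last, again with overlapping neighbours.

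Jak2, the kinase of the erythropoietin and GM-CSF receptor families, had lower counts and another order. DC.8+ (140.7 ± 35.7) and MC (128.4 ± 14.75) overlapped each other, and all MC libraries exceeded those of GN, the next in order. Then followed GN (89.14 ± 14.06), pDC (65.41 ± 10.09), Tgd (59.66 ± 16.49), Mo.6C+ (50.11 ± 7.961), B.fo (48.37 ± 4.045), Treg (45.52 ± 9.292), T.8 (42.08 ± 5.349) and T.4 (40.74 ± 6.108). NK (37.86 ± 3.898), MFrp (35.77 ± 20.44), MZB (29.88 ± 6.936) and MFpc (19.16 ± 3.473) were lowest. From GN downward all neighbours overlapped, so the middle of this order is not resolved.

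Jak3 had its highest means in the 7 lymphocyte types, namely Treg (231.2 ± 32.25), Tgd (188.2 ± 23.67), T.4 (176.5 ± 18.72), T.8 (167.3 ± 34.42), NK (154.3 ± 25.6), B.fo (122.6 ± 32.22) and MZB (115.9 ± 13.67). Every other type had a lower mean, from pDC (73.63 ± 21.82), MFrp (64.06 ± 16.05), Mo.6C+ (53.79 ± 5.562) and DC.8+ (50.89 ± 24.87) to GN (42.31 ± 16.84), MC (27.27 ± 8.707) and MFpc (22.92 ± 4.722). All neighbours in this order overlapped. Tyk2, a kinase of the interferon and IL-12 receptors, was highest in NK (403 ± 17), with no overlap with the next, DC.8+ (280 ± 25.96). Mo.6C+ (264.7 ± 26.16) and pDC (220.9 ± 38.92) followed, and all pDC libraries exceeded those of Tgd, the next in order. From Tgd (142.8 ± 32.41), MFpc (136.9 ± 24.9), MFrp (136.7 ± 41.68), T.8 (132.2 ± 44.92) and Treg (126.2 ± 23.71) to MZB (124.9 ± 15.74), B.fo (122.8 ± 20.26), T.4 (113.2 ± 24.65) and MC (109.6 ± 12.77), neighbours overlapped. GN held the least Tyk2 (83.86 ± 10.54), below every MC library.

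The 2 phosphatase genes were ordered differently from each other. Ptpn1 was highest in GN (981.8 ± 69.67) and Mo.6C+ (929 ± 28.63), which overlapped and exceeded all others. Behind them stood pDC (416.1 ± 28.98), MFrp (374.6 ± 65.74), MZB (349.8 ± 61.44), MFpc (277.8 ± 29.51), Treg (252.6 ± 42.14), T.4 (213.9 ± 21.62) and B.fo (204.1 ± 32.07). DC.8+ (186.8 ± 39.32), NK (181.8 ± 28.14), T.8 (178.6 ± 25.54) and Tgd (169.7 ± 17.24) overlapped their neighbours, and MC (75.2 ± 31.41) was below every other type. Ptpn2 was the reverse at this end. MC held 455.7 ± 47.86 and NK 122.2 ± 13.09, each without overlap with the next. The other 12 types ran from T.4 (77.62 ± 9.829), Tgd (74.15 ± 6.493), Treg (73.22 ± 16.26), T.8 (67.94 ± 4.986), DC.8+ (60.57 ± 12.41) and Mo.6C+ (57.12 ± 5.539) through B.fo (55.65 ± 16.03), GN (52.74 ± 11.55), pDC (50.34 ± 7.35), MFrp (46.91 ± 8.001) and MZB (46.22 ± 10.42) to MFpc (39.9 ± 4.739), with overlapping neighbours.

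**Figure D1:**
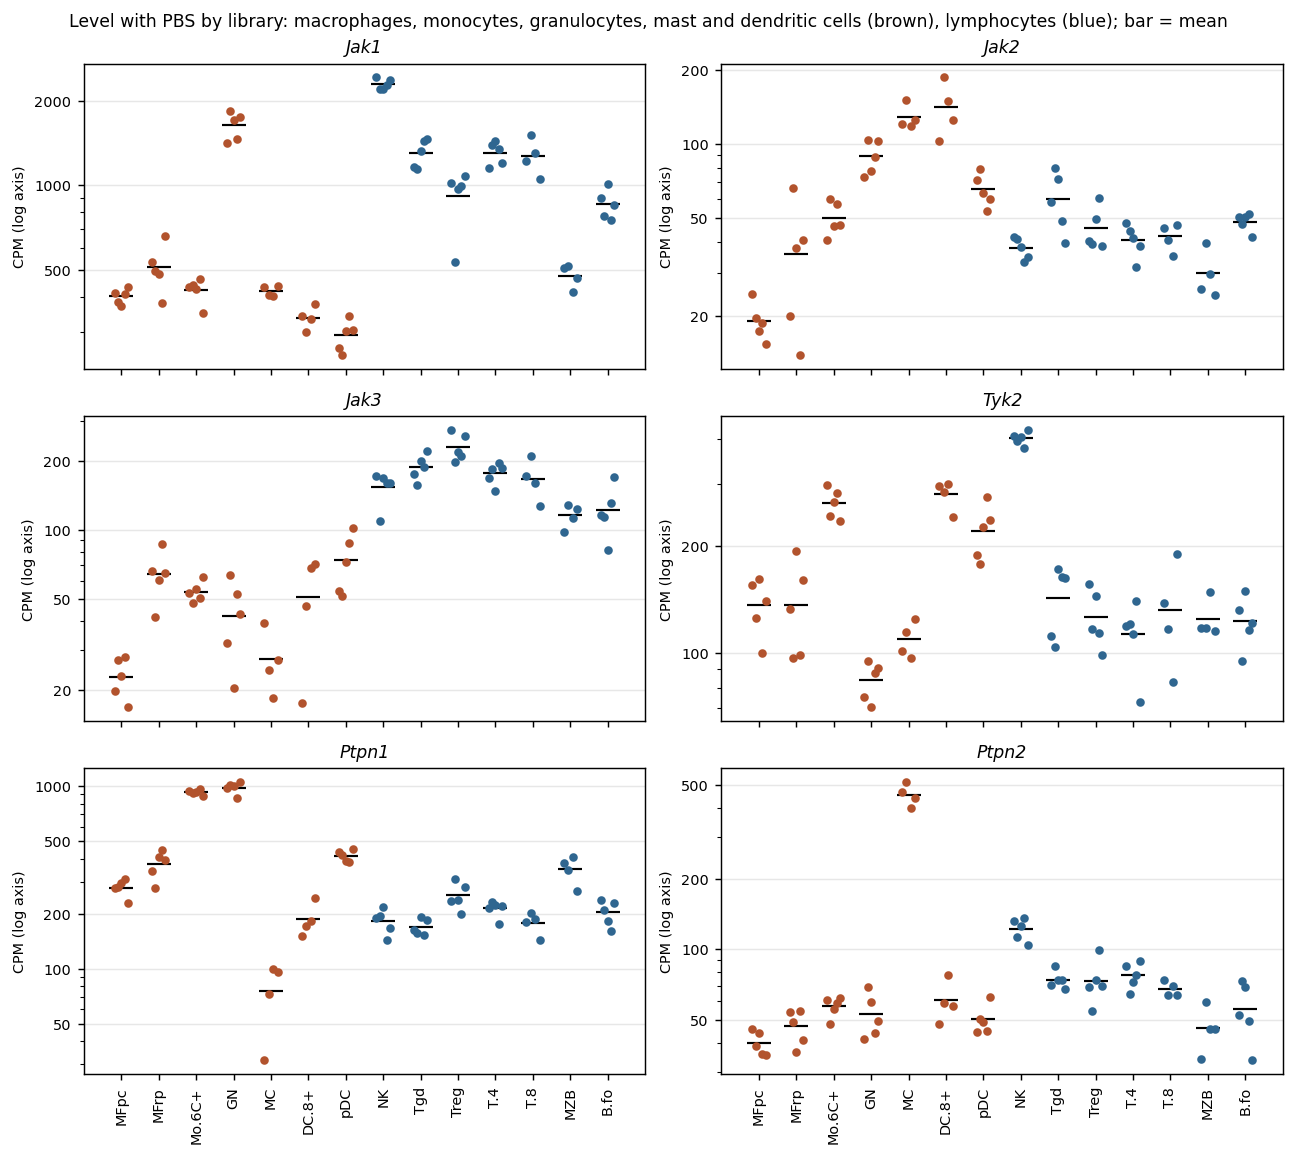
Level of each of the 6 genes with PBS (vertical log axis, CPM) in the 14 cell types (horizontal axis). Points are libraries, bars are means, and blue marks the 7 lymphocyte types; the NK points lie highest for Jak1 and Tyk2, the MC points highest for Ptpn2 and lowest for Ptpn1.

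The plot of PBS levels shows the lymphocyte means above the others for Jak3, with points of B.fo among those of pDC and MFrp and points of MZB among those of pDC, and lymphocytes mixed with the others for Tyk2 and Ptpn2. The mean over the 7 lymphocyte types was compared with that over the 7 others by edgeR's quasi-likelihood test, and 4 of the 6 genes were called (adjusted p under 0.05), against 61.8% of all genes tested. SE and p-values here come from the spread between libraries within a type, not between types, and hold for these types only. Type means of Jak1, for example, ran from 476.4 to 2294 CPM in lymphocytes and from 292.5 to 1632 in the others. Jak1 was higher in lymphocytes by 1.19 ± 0.05 on the log2 scale (SE, adjusted p = 1.499e-30) and Jak3 by 1.86 ± 0.09 (adjusted p = 1.851e-26). Jak2 was lower (-0.55 ± 0.08, adjusted p = 6.545e-08), as was Ptpn1 (-0.68 ± 0.06, adjusted p = 3.066e-15). Tyk2 (-0.11, adjusted p = 0.1688) and Ptpn2 (0.03, adjusted p = 0.7586) were not called. Scaling by library totals alone raised every difference. Jak1 was then 1.61 and Jak3 2.28, Jak2 was no longer called (-0.12, adjusted p = 0.2248), and Tyk2 (0.32) and Ptpn2 (0.46) were called higher in lymphocytes. Ptpn1 remained called at -0.25. With RLE factors Tyk2 was called lower (-0.16, adjusted p = 0.04047). Without MC, Ptpn1 was -1.07, and Tyk2 (-0.23, adjusted p = 0.003641) and Ptpn2 (0.45, adjusted p = 2.738e-08) were called. With library totals GN moved from the second to the sixth place for Jak1 (985 CPM) and behind Mo.6C+ for Ptpn1 (592.3 against 851.1 CPM).

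Levels of different genes were set side by side only per length, as CPM per kilobase of merged exons. Jak1 had the highest level of the 6 genes per kilobase in 11 of the 14 types, from 46.8 ± 4.4 in DC.8+ to 317.4 ± 13.26 in NK. Ptpn1 led in Mo.6C+ (167.9 ± 5.174) and pDC (75.2 ± 5.238), and Ptpn2 in MC (145.8 ± 15.32). Over the 14 cell type means of log2 CPM, Jak1 and Jak3 had a Pearson correlation of 0.589, Jak2 and Ptpn2 of 0.495 and Ptpn1 and Ptpn2 of -0.675. These values only describe 14 points that share libraries. MC stood apart for Ptpn2 (455.7 CPM, next NK at 122.2) and had the lowest Ptpn1 (75.2). The weight of MC in the correlations with Ptpn2, here and below, was not tested. Among 10908 other genes with at least 20 CPM in their highest type, the patterns most like Jak1 were those of Gramd1a (0.904), Mtmr12 (0.896) and Gm3940 (0.887). For Jak2 they were Arpp19 (0.876), Vhl (0.866) and Usp22 (0.823). The T cell gene Cd2 (0.961), Gimap3 (0.963) and Ifi208 (0.961) were most like Jak3. Polr2i (0.901), Trim36 (0.82) and, between these, Nubp2 came closest to Tyk2. Atg9a (0.936), Tpd52 (0.917) and H2aj (0.904) came closest to Ptpn1, and Samd13 (0.969), Kalrn (0.943) and Trank1 (0.94) to Ptpn2.

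At 2 h, the response of these genes was mostly upward and differed in reach between the cytokines. Each cytokine was compared with PBS in each cell type, in 1 fit per type, and a change was called at an adjusted p under 0.05 over all genes tested. The 3 cytokines share the PBS libraries of a type. All 6 genes passed the filter on low counts in all 41 comparisons. With IL1b (13 types) 29 calls were made, all of them increases. Ptpn1 rose in 10 types, Jak3 in 8, Ptpn2 in 5, Jak2 in 4 and Jak1 in 2. Over all genes and types tested with IL1b, 5.76% were raised and 4.26% lowered. Under scaling by library totals alone, 4 decreases were called with IL1b, namely Jak1 in GN (-0.47, adjusted p = 0.017001) and NK (-0.39, adjusted p = 0.044995) and Tyk2 in GN (-0.95, adjusted p = 0.0071977) and Mo.6C+ (-0.59, adjusted p = 0.0015968). With IL6 (14 types) 13 calls were made. Jak3 and Ptpn1 rose in 5 types each (DESeq2 called Jak3 in 9) and Ptpn2 in 1, while Jak1 and Ptpn1 fell in 1 each, both in GN. The shares over all genes were 1.46% raised and 0.95% lowered. With TNFa (14 types) 42 calls were made. Jak3 and Ptpn1 rose in 10 types each, Jak2 in 7, Tyk2 in 6, Ptpn2 in 5 and Jak1 in 3, and Jak1 fell in 1. Here 8.26% were raised and 7.95% lowered over all genes. With library totals, Jak1 was called lower in GN too (-0.995, adjusted p = 2.404e-05).

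Cell types differed in how many of the 6 genes were called, and also in how many genes were called at all. In MFpc 5 genes rose with IL1b, 3 with IL6 and 5 with TNFa, where 37.3%, 15.3% and 53.4% of all genes tested were called in either direction. In Mo.6C+ the counts were 5, 2 and 6, against 37.0%, 5.87% and 48.7%. GN had 4 increases with IL1b, 2 decreases with IL6 and 4 increases with TNFa, against 22.4%, 9.51% and 37.5%. MFrp had 3, 1 and 6 increases against 10.9%, 0.387% and 21.6%. DC.8+ had 4, 1 and 4 against 4.82%, 0.107% and 15.5%. In pDC 1 gene rose with IL6 and 3 with TNFa, against 0.154% and 14.4%. In each of these types 3 or more of the genes rose with TNFa and, where it was given, with IL1b.

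Of the lymphocytes, T.4 had 2 increases with IL1b, 2 with IL6 and 3 with TNFa, against 5.96%, 2.8% and 6.56% of all genes. Treg had 1, 0 and 3 against 3.28%, 0.494% and 5.1%, and Tgd 1, 0 and 2 against 2.14%, 0.0147% and 3.42%. T.8 had 1, 0 and 1 against 0.581%, 0.151% and 0.481%. MZB had 1, 1 and 2 against 3.96%, 0.218% and 2.74%, and B.fo 1, 0 and 1 against 1.09%, 0.394% and 3.51%. In NK 1 gene rose with IL1b, none was called with IL6, and 1 rose and 1 fell with TNFa, against 3.39%, 0.0% and 15.6%. In NK with IL6, 0 of 13524 genes passed in edgeR, 980 had an unadjusted p below 0.05, and 34 passed in DESeq2. In MC none of the 6 was called with IL1b, IL6 or TNFa, against 2.19%, 0.425% and 3.99%.

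These counts of 0 came from edgeR's quasi-likelihood test. In MC, unadjusted p-values under 0.05 were found for 2 of the genes with IL1b, 2 with IL6 and 3 with TNFa, and DESeq2 called none. With IL6 they were found for 3 genes in B.fo, 3 in T.8, 2 in Treg, 1 in Tgd and 1 in NK, of which DESeq2 called 2 in B.fo and 1 in T.8. By gene, Tyk2 had such values in 5 of 13 types with IL1b and 3 of 14 with IL6, and Jak2 in 1 of 14 with IL6, with no DESeq2 call.

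**Figure D2:**
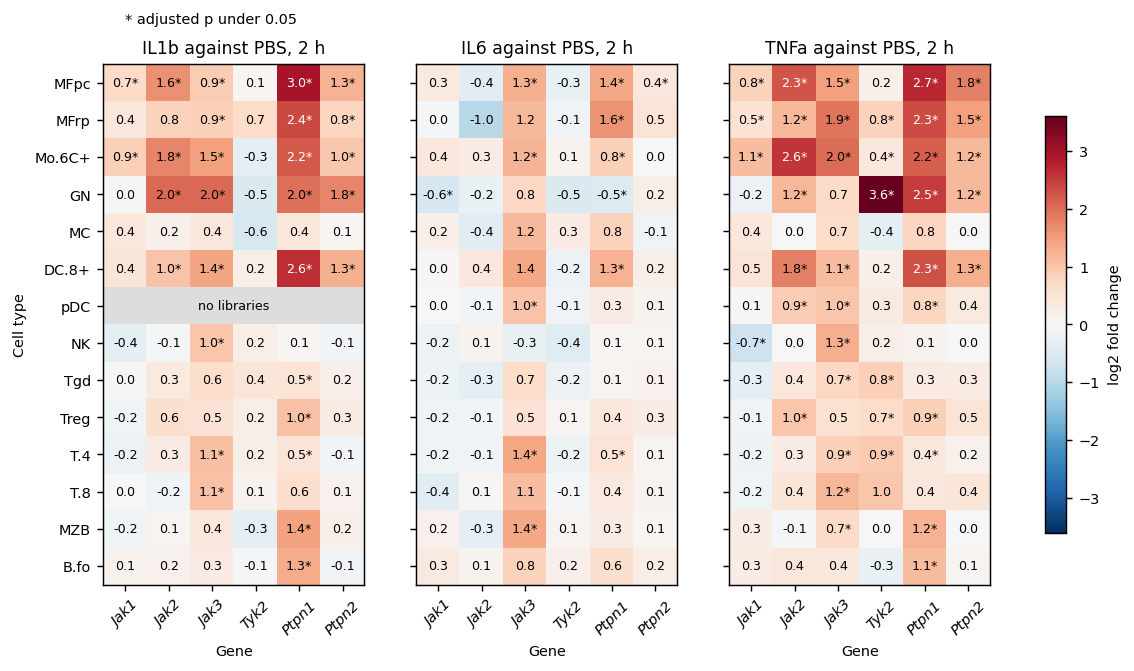
Change with IL1b, IL6 and TNFa against PBS at 2 h (color, log2 fold change) for the 6 genes (columns) in 14 cell types (rows); an asterisk marks an adjusted p under 0.05, and pDC has no IL1b value. Tyk2 carries no asterisk with IL1b or IL6, and its strongest color is GN with TNFa (3.58).

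The map of responses shows Ptpn1 and Jak3 with the most asterisks and Tyk2 and Jak1 with few. Jak1, the first of the kinases, rose in macrophages and monocytes. In Mo.6C+ it stood at 352.6, 361, 355.7, 386.4 and 290.9 CPM with PBS (levels in the remainder of the text come from the fit of the cell type named), at 622.3, 604.7 and 673.9 with IL1b and at 816.1, 695.2 and 749.1 with TNFa. All cytokine libraries were above all PBS libraries. The increases were 0.86 ± 0.14 with IL1b (log2 fold change ± SE, adjusted p = 0.0001108) and 1.11 ± 0.14 with TNFa (adjusted p = 4.582e-06). In these monocytes the 5 red pulp macrophage markers, led by Hmox1 and Spic, summed to 2658 to 4495 CPM with IL1b and 5334 to 7697 with TNFa against 148.2 to 297.2 with PBS. Of the other markers, Vcam1, Slc40a1 and Cd5l overlapped PBS with IL1b. With TNFa Slc40a1 overlapped it, while Vcam1 (27.18 to 63.32 CPM) and Cd5l (2.289 to 5.057) were above it. The part of these RNAs in this and the further Mo.6C+ results was not tested. MFpc showed increases of 0.69 ± 0.13 with IL1b (adjusted p = 0.0002066) and 0.84 ± 0.13 with TNFa (adjusted p = 1.202e-05).

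In NK, where Jak1 was most abundant, it went the other way. PBS libraries held 2684, 2469, 2405, 2535 and 2652 CPM and TNFa libraries 1617, 1640 and 1291. The groups did not overlap, and the change was -0.75 ± 0.10 (adjusted p = 3.958e-05). The 5 regulatory T cell markers summed to 39.68 to 65.19 CPM in these TNFa libraries against 18.2 to 24.66 with PBS, and their part was not tested. With IL1b the libraries (1641, 2266 and 2052 CPM) were also all lower, but the change (-0.36 ± 0.10) was not called (adjusted p = 0.05567). DESeq2 called it (adjusted p = 0.03277), and so did edgeR without IL1b replicate 2 (-0.46, adjusted p = 0.02937). In GN, Jak1 fell with IL6, from 677.9, 884.6, 878.2, 757.2 and 923.5 to 576.9, 474.7 and 588.6 CPM (-0.59 ± 0.14, adjusted p = 0.01303). This call was lost without IL6 replicate 2 (-0.49, adjusted p = 0.1141). The Ly6C+ monocyte markers summed to 5611 to 7191 CPM in the GN libraries with IL6 against 108.1 to 2233 with PBS, and their part in the GN results with IL6 was not tested. A rise in MFrp with TNFa (0.52 ± 0.18, adjusted p = 0.04812) had overlapping groups and was lost when any 1 of PBS replicates 1 to 4 or of the 3 TNFa libraries was left out (0.43 to 0.59, adjusted p up to 0.1619), and without the PBS libraries rich in haemoglobin (0.40, adjusted p = 0.2961).

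Jak2 rose in 4 types with IL1b and in 7 with TNFa, and was called with IL6 in 0 of 14. In Mo.6C+, PBS libraries held 33.05, 48.64, 38.72, 47.64 and 38.73 CPM, IL1b libraries 147.2, 150.5 and 121 and TNFa libraries 225.5, 245.1 and 272.9. Every TNFa library lay above every IL1b library, and these above every PBS library. The changes were 1.75 ± 0.14 with IL1b (adjusted p = 1.126e-07) and 2.58 ± 0.14 with TNFa (adjusted p = 6.879e-10), and their difference was itself called (IL1b minus TNFa -0.83, adjusted p = 0.00226). In MFpc, Jak2 rose from 13.42 ± 2.503 CPM (SD, n = 5) to 42.09 ± 5.799 with IL1b (1.65 ± 0.16) and 64.65 ± 8.955 with TNFa (2.27 ± 0.16), n = 3 each.

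GN showed the opposite order of the 2 cytokines. Against 34.98, 50.19, 39.71, 46.21 and 54.19 CPM with PBS, Jak2 was 188.1, 161.9 and 199.9 with IL1b (2.03 ± 0.19, adjusted p = 7.918e-07) and 128.2, 105.6 and 77.46 with TNFa (1.21 ± 0.20, adjusted p = 0.0001098). The 3 groups did not overlap, and IL1b exceeded TNFa by 0.82 (adjusted p = 0.0129). With scaling by library totals the TNFa change was 0.42 and not called (adjusted p = 0.0953). DC.8+ rose with TNFa from 90.9, 162.6, 131.1 and 108.6 to 511.8, 376.6 and 410.2 CPM (1.81 ± 0.21, adjusted p = 2.89e-05), with all TNFa libraries far above the PBS libraries. In DC.8+ with TNFa the red pulp macrophage markers summed to 1421 to 1964 CPM against 396.7 to 1103 with PBS and the DC.8+ markers to 1226 to 2132 against 2169 to 4357, and their part in the DC.8+ results was not tested. TNFa also raised Jak2 in Treg (1.01 ± 0.21), pDC (0.92 ± 0.14) and MFrp (1.18 ± 0.38, adjusted p = 0.03405). The MFrp call was lost without PBS replicate 1 or 3 or any TNFa library (1.00 to 1.24, adjusted p up to 0.0979). The IL1b call in DC.8+ (1.01 ± 0.23, adjusted p = 0.01635) was lost without PBS replicate 5 (0.93, adjusted p = 0.0549) or IL1b replicate 3 (0.74, adjusted p = 0.2116), and without the libraries with red cell genes (1.25, adjusted p = 0.0677) or NK genes (0.95, adjusted p = 0.0627).

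Jak3, the kinase of the common gamma chain, was the Janus kinase gene called in the most comparisons. With IL6, all IL6 libraries were above all PBS libraries in 12 of the 14 types, where 6.2% of all genes and types tested had such a separation. The corresponding counts were 8 of 13 types with IL1b and 11 of 14 with TNFa, against 9.88% and 11.6%. In T.4, PBS libraries held 195.4, 215.8, 172, 232.2 and 223.2 CPM, IL6 libraries 494.2, 478.5 and 648.9, IL1b libraries 363.9, 518.4 and 448.1 and TNFa libraries 340.4, 325.4 and 466.7. Every cytokine library exceeded every PBS library. The increases were 1.38 ± 0.14 with IL6 (adjusted p = 4.785e-06), 1.09 ± 0.14 with IL1b (adjusted p = 1.85e-05) and 0.86 ± 0.14 with TNFa (adjusted p = 0.0002952). IL1b libraries overlapped those of IL6 and of TNFa. Every IL6 library was above every TNFa library, but that difference was not called.

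In MZB, Jak3 was 110.8, 145.7, 127.5 and 141.9 CPM with PBS and 270.5, 383.3 and 384.1 with IL6 (1.39 ± 0.16, adjusted p = 0.0002393). IL1b libraries (148.8, 172.5 and 195) and TNFa libraries (219.5, 160.3 and 253.3) all lay below the IL6 libraries. IL6 exceeded IL1b by 1.01 on the log2 scale (IL1b minus IL6 -1.01, adjusted p = 0.00151) and TNFa by 0.71 (TNFa minus IL6 -0.71, adjusted p = 0.0386). MZB was the only type in which the difference between cytokines was called in favor of IL6 for Jak3. NK was at the other end, with 160.5 and 124 CPM with IL6 among PBS libraries of 191.8, 122.6, 183.8, 177.6 and 180.2. IL1b (281.6, 344.4 and 397.1) and TNFa (376.4, 545 and 358.7) raised it there by 0.99 ± 0.16 (adjusted p = 0.0009487) and 1.32 ± 0.16 (adjusted p = 1.321e-05).

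**Figure D3:**
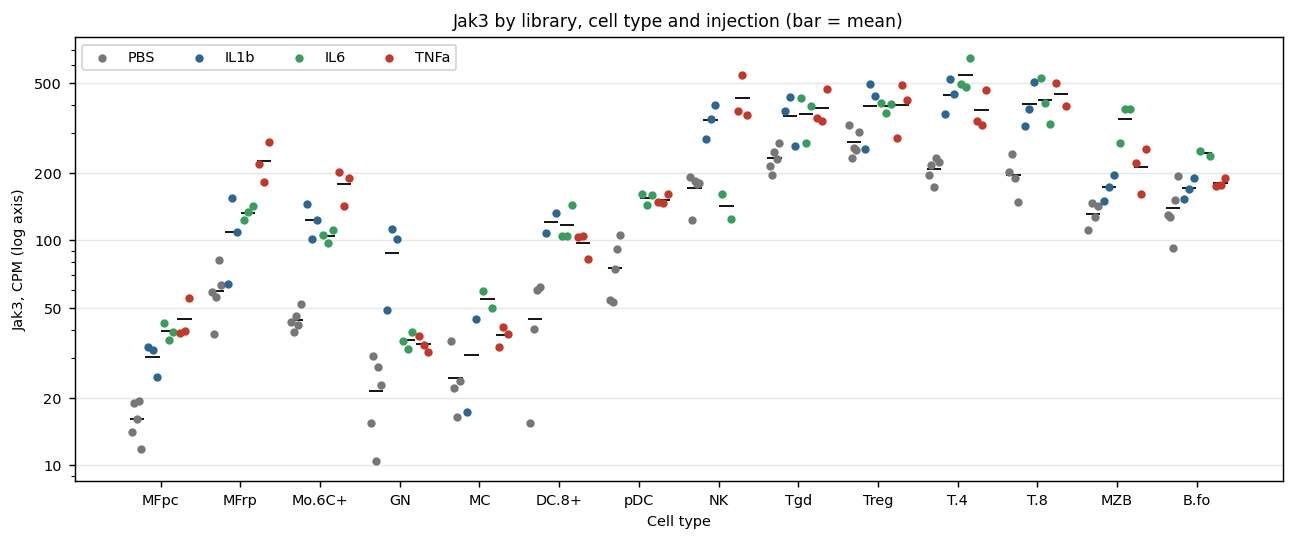
Jak3 in every screen library (vertical log axis, CPM) by cell type (horizontal axis) and treatment (color); black lines are means. IL6 points lie above all PBS points in 12 of 14 types and overlap them in NK and Tgd.

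The plot of Jak3 by library shows cytokine points above all PBS points in most types. IL6 points overlapped the PBS points in NK and, by 1 library, in Tgd. IL1b points overlapped them in B.fo, Treg, MC, MFrp and Tgd, and TNFa points in B.fo, Treg and MC. The other called increases were 0.91 (IL1b), 1.29 (IL6) and 1.47 (TNFa) in MFpc, 1.47, 1.23 and 2.00 in Mo.6C+, 2.03 with IL1b in GN, 1.91 with TNFa in MFrp and 1.00 with TNFa in pDC. GN with TNFa stood at 37.73, 34.26 and 31.97 CPM against 15.41, 30.57, 10.45, 27.42 and 22.73 with PBS, higher without overlap but not called (0.70 ± 0.32, adjusted p = 0.0918). It was called without PBS replicate 2 (0.87, adjusted p = 0.0465). Several calls rested on single libraries. Those of T.8 were lost without PBS replicate 1, 3 or 4 or IL1b replicate 2 or 3 (IL1b, 1.05, adjusted p up to 0.2282) and without PBS 1, 3 or 4 or either TNFa library (TNFa, 1.202, adjusted p up to 0.1181). Those of DC.8+ were lost without PBS 2 or either IL1b library (IL1b, 1.43, adjusted p up to 0.1971) and without PBS 2, TNFa 1 or TNFa 2 (TNFa, 1.12, adjusted p up to 0.1077). The call of MFrp with IL1b (0.87) was lost without PBS 1, 2, 3 or 5, IL1b 2 or IL1b 3 (adjusted p up to 0.3284) and without the haemoglobin-rich libraries (0.54, adjusted p = 0.3428). Those of pDC with IL6 (1.03, without PBS 1, PBS 3 or any IL6 library, adjusted p up to 0.1592), MZB with TNFa (0.68, without PBS 1, PBS 3, TNFa 1 or TNFa 3, adjusted p up to 0.154) and Tgd with TNFa (0.74, without TNFa 3, adjusted p = 0.1673) were lost as well. Jak3 shares its strand and its 3′ end with Insl3, which was counted separately and held 3689 counts in all against 160121 for Jak3.

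Tyk2 had the single strongest response among the 4 Janus kinase genes, in GN with TNFa. By log2 fold change it ranked 267 of the 11201 genes tested in that comparison. There PBS libraries held 36.06, 45.95, 36.1, 45.64 and 47.99 CPM, IL1b libraries 35.49, 37.18 and 16.47, IL6 libraries 35.94, 20.59 and 32.46, and TNFa libraries 471.5, 537.6 and 505. All 3 TNFa libraries were far above every other GN library, and IL1b and IL6 libraries were at or below the PBS level. The increase was 3.58 ± 0.23 (adjusted p = 1.853e-09), and TNFa exceeded IL1b (IL1b minus TNFa -4.09, adjusted p = 2.84e-08) and IL6 (4.09, adjusted p = 1.01e-08) by as much. The median change of all genes in GN with TNFa was -0.21 under TMM scaling, and scaling by library totals lowered it by a further 0.78.

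Genes beside Tyk2 on chromosome 9 were looked at after its values had been seen. Cdc37, the next gene, encodes a kinase cochaperone and lies on the same strand (chr9:21133222-21149982). It rose from 72.27 to 201.8 CPM in GN with TNFa (1.48 ± 0.16, adjusted p = 9.768e-07). Pde4a (0.63, adjusted p = 0.6384) and Keap1 (0.54, adjusted p = 0.3502) beyond it were not called. On the other side of Tyk2, Gm38431 (0.6882 CPM with TNFa) and Raver1 (0 CPM) did not pass the filter on low counts. The antisense gene 1700084C06Rik, which overlaps Tyk2, held 18 counts in all 209 libraries. Marker sums of other cell types moved with TNFa in GN. The 5 Ly6C+ monocyte markers summed to 3257 to 3952 CPM against 108.1 to 2233 with PBS, carried by Ly6c2 and Chil3, while Ccr2, F13a1 and Ms4a4c were at 0 in all 3 TNFa libraries. The mast cell sum (19.92 to 59.11 against 0.53 to 10.35 CPM) was Kit nearly alone, with Cpa3, Mcpt4 and Tpsb2 at 0, and the peritoneal macrophage sum (172.4 to 236.2 against 101.3 to 172.3) was mostly Adgre1. The part of these RNAs in the GN results was not tested.

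**Figure D4:**
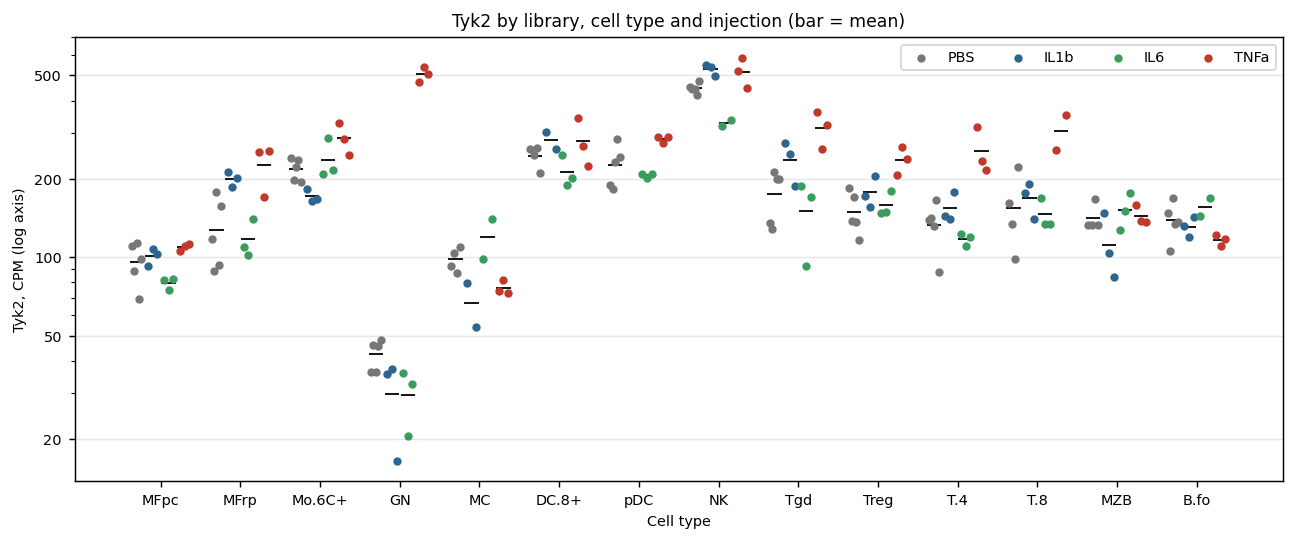
Tyk2 in every screen library (vertical log axis, CPM) by cell type (horizontal axis) and treatment (color); black lines are means. The 3 GN libraries with TNFa (471.5 to 537.6) stand above all other GN libraries (16.47 to 47.99).

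In the plot of Tyk2 by library, T cells with TNFa form a second, smaller step. T.4 rose from 138.5, 141.6, 131.4, 165.8 and 87.44 to 315.6, 234.9 and 216.6 CPM without overlap (0.94 ± 0.16, adjusted p = 0.0004649). Tgd (0.85 ± 0.21, adjusted p = 0.03016) and Treg (0.67 ± 0.16, adjusted p = 0.01281) rose as well, while T.8 had a similar estimate (0.98 ± 0.25, n = 2) that was not called (adjusted p = 0.1263). T.8 was called by DESeq2 (adjusted p = 0.01573) and by edgeR without PBS replicate 4 (1.22, adjusted p = 0.0357). Its 2 TNFa libraries differed in markers of other cells. NK markers summed to 622.2 CPM in TNFa 3 (Tyk2 351) and 43.96 in TNFa 1 (Tyk2 259.2), against 194 to 445.8 with PBS. Ly6C+ monocyte markers summed to 775.6 and 307.3, against 412 to 520.3. Their part in the T.8 results was not tested. MZB (0.03) and B.fo (-0.25) were not called. The Tgd call was lost without PBS 1, PBS 2, TNFa 1 or TNFa 3 (0.74 to 0.83, adjusted p up to 0.1512) and the Treg call without TNFa 2 (0.57, adjusted p = 0.0883). In MFrp the increase with TNFa (0.84 ± 0.23, adjusted p = 0.01758) was lost without TNFa 1 or TNFa 3 (0.74, adjusted p up to 0.0768) and without the haemoglobin-rich libraries (0.82, adjusted p = 0.0609). In Mo.6C+ it was 0.39 ± 0.13 (adjusted p = 0.0225), lost without PBS 2, TNFa 1 or TNFa 2 (0.28 to 0.40, adjusted p up to 0.1405). Under library totals the Mo.6C+ value turned to -0.04 (adjusted p = 0.7931).

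Ptpn1, the gene of PTP1B, was called more often than any of the other 5 genes, 10 times with IL1b, 6 with IL6 and 10 with TNFa. In MFpc it stood at 194.6, 197.8, 205.4, 213.1 and 161.3 CPM with PBS, at 1715, 1395 and 1477 with IL1b, at 544.2, 550 and 423.9 with IL6 and at 1318, 1263 and 1263 with TNFa. The 4 groups did not overlap. The increases were 2.97 ± 0.10 with IL1b (adjusted p = 1.748e-14), 1.38 ± 0.10 with IL6 (adjusted p = 2.557e-08) and 2.72 ± 0.10 with TNFa (adjusted p = 1.17e-14). Mo.6C+ rose from 765.4, 750.4, 774.8, 806.7 and 735.6 CPM to 3680, 3699 and 3207 with IL1b (2.203 ± 0.12), 1080, 1573 and 1481 with IL6 (0.85 ± 0.12) and 3755, 3500 and 3011 with TNFa (2.16 ± 0.12). All 9 cytokine libraries were above the PBS libraries, and IL1b and TNFa libraries overlapped.

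DC.8+ and MFrp rose as well, by 2.65 ± 0.19 and 2.38 ± 0.17 with IL1b, 1.26 ± 0.18 and 1.61 ± 0.17 with IL6 and 2.29 ± 0.18 and 2.35 ± 0.17 with TNFa. In MFrp the type's own markers summed to 9239 to 16770 CPM with IL1b, below the 17170 to 31610 with PBS, and to 23710 to 32020 with TNFa. The part of this shift in the MFrp results with IL1b was not tested. In GN the direction depended on the cytokine. PBS libraries held 468, 487.4, 515.7, 450.6 and 555.7 CPM, IL1b libraries 1514, 2168 and 2159 (1.97 ± 0.13, adjusted p = 6.935e-09) and TNFa libraries 3163, 2693 and 2608 (2.51 ± 0.13, adjusted p = 1.294e-10). IL6 libraries, at 382.5, 333.1 and 350.4, were below all PBS libraries (-0.48 ± 0.13, adjusted p = 0.03063). This decrease was lost without PBS 2, 3 or 5 or any IL6 library (-0.53 to -0.43, adjusted p up to 0.1691).

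In B cells Ptpn1 rose with IL1b and TNFa. MZB went from 427, 394, 460.4 and 304.2 to 815.1, 1170 and 1258 CPM with IL1b (1.45 ± 0.14) and to 1002, 842.2 and 970.5 with TNFa (1.24 ± 0.14), without overlap. B.fo rose by 1.33 ± 0.14 and 1.13 ± 0.13, the second with the deeper libraries. Treg rose by 1.04 ± 0.14 with IL1b and 0.86 ± 0.14 with TNFa, and pDC by 0.77 ± 0.09 with TNFa. NK was not called (0.07 ± 0.13, 0.06 ± 0.15 and 0.12 ± 0.13 with IL1b, IL6 and TNFa, adjusted p = 0.9085, 0.962 and 0.6194). T.4 rose by 0.48 ± 0.10 with IL1b, 0.49 ± 0.10 with IL6 and 0.38 ± 0.10 with TNFa. Single libraries decided 4 of the smaller calls. T.4 was lost with IL6 without IL6 2 (0.47, adjusted p = 0.0555) and with TNFa without PBS 4, TNFa 1 or TNFa 2 (0.30 to 0.41, adjusted p up to 0.2106). DC.8+ with IL6 was lost without PBS 2, IL6 1 or IL6 2 (1.21 to 1.31, adjusted p up to 0.0668). Tgd with IL1b (0.48 ± 0.12, adjusted p = 0.03743) was lost without PBS 1, 2 or 4 or any IL1b library (0.42 to 0.52, adjusted p up to 0.2004), among them the one with B cell genes.

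Ptpn2, the gene of TC-PTP, lies on chromosome 18 (chr18:67665511-67724595, minus strand). It rose with IL1b and with TNFa in MFpc, DC.8+, MFrp, Mo.6C+ and GN, and was called in no lymphocyte type with any cytokine. In MFpc it was 32.33, 27.04, 30.82, 24.74 and 24.83 CPM with PBS, 72.46, 60.61 and 67.27 with IL1b and 108.7, 98.65 and 86.22 with TNFa. The 3 groups were fully separated. The increases were 1.26 ± 0.12 (adjusted p = 4.144e-08) and 1.81 ± 0.12 (adjusted p = 6.433e-11), and TNFa exceeded IL1b (IL1b minus TNFa -0.55, adjusted p = 0.00522). In Mo.6C+ it rose by 0.96 ± 0.14 and 1.18 ± 0.14, in DC.8+ by 1.27 ± 0.21 and 1.30 ± 0.20, in GN by 1.75 ± 0.25 and 1.16 ± 0.25 and in MFrp by 0.77 ± 0.20 and 1.47 ± 0.20, with IL1b and TNFa in that order. MC, with by far the highest level, had 424.9, 466.5, 358.8 and 386.8 CPM with PBS, 457.1 and 402.6 with IL1b and 456.5, 377.9 and 400 with TNFa. These groups overlapped (0.07 ± 0.14 and 0.01 ± 0.13). IL6 raised Ptpn2 in MFpc alone of the 14 types (0.41 ± 0.12, adjusted p = 0.02351), a call lost without PBS 5, IL6 1 or IL6 3 (0.36 to 0.42, adjusted p up to 0.1136). In GN with TNFa the value was 0.38 under library totals and not called (adjusted p = 0.2161). The MFrp call with IL1b was lost without PBS 3 or any IL1b library (0.69 to 0.77, adjusted p up to 0.095) and without the haemoglobin-rich libraries (0.66, adjusted p = 0.1474).

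The dependence of these responses on cell type was tested in a fit of all screen libraries. With IL1b all 6 genes were called, where 22.8% of all genes were, the smallest adjusted p being that of Ptpn1 (6.348e-32) and the largest that of Tyk2 (0.00238). With TNFa all 6 were called against 36.3%, from Ptpn1 (3.462e-32) and Tyk2 (3.599e-26) to Jak3 (6.079e-05). With IL6, Ptpn1 (adjusted p = 6.916e-14), Jak1 (0.001541) and Jak3 (0.02313) were called against 6.87%, and Jak2 (0.1524), Tyk2 (0.6176) and Ptpn2 (0.8123) were not.

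The cytokines were also compared with each other within each type, and 62 differences were called over the 6 genes. IL1b and TNFa differed least. IL1b was higher for Jak2 and Jak3 in GN. Over all types 2.33% of all tests were higher, but in GN alone 1289 of 11201 genes were. IL1b was lower 7 times, namely for Jak2 in MFpc and Mo.6C+, Jak3 in Mo.6C+, Tyk2 in Mo.6C+ and GN, Ptpn1 in GN and Ptpn2 in MFpc. Over all types 2.17% were lower. In these types the counts were 1130 of 11201 in GN, 944 of 12079 in MFpc and 824 of 12573 in Mo.6C+. IL1b exceeded IL6 in 20 comparisons, 7 of them for Ptpn1 and 4 each for Jak2 and Ptpn2, against 3.06% of all tests. IL6 exceeded IL1b in 2, for Jak3 in MZB and Tyk2 in Mo.6C+ (-0.47, adjusted p = 0.0349), against 2.14% over all types. In MZB alone 127 of 12397 genes were higher with IL6, and in Mo.6C+ 1390 of 12573. TNFa exceeded IL6 in 29, with 7 for Jak2, 7 for Ptpn1, 6 for Tyk2 and 5 for Ptpn2, against 5.41%. It was below IL6 in 2, for Jak1 in NK (-0.53, adjusted p = 0.0116) and Jak3 in MZB, against 5.18% over all types. In NK alone 484 of 13524 genes were below, and in MZB 30 of 12397. For Tyk2 in NK, IL6 libraries (320.3 and 338 CPM) were below IL1b (549.4, 540.7 and 497.8) and TNFa (521.2, 586 and 445.7) libraries without overlap, and both differences were called (0.69, adjusted p = 0.00845, and 0.65, adjusted p = 0.00313). Against PBS none of these 3 was called.

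Over the 24 h after TNFa, the genes went back toward the PBS level at different paces. The time course compared TNFa at each time with PBS at 24 h, so that time after injection and treatment are not separated by a PBS group of each time. In Mo.6C+ 5 genes rose at 2 h, 4 at 4 h, 2 rose and 1 fell at 8 h, and 2 rose at 24 h, against 40.3%, 32.5%, 22.0% and 4.46% of all genes. In MFpc 5 rose at 2 h, 5 at 4 h, 3 rose and 1 fell at 8 h, and 1 rose at 24 h, against 36.2%, 35.6%, 28.4% and 6.67%. Compared with 2 h, Mo.6C+ had 1 gene lower at 4 h, 5 at 8 h and 4 at 24 h, against 10.3%, 33.7% and 36.4%. MFpc had 3, 5 and 5 lower, against 9.51%, 25.8% and 34.4%.

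In the Mo.6C+ libraries neutrophil markers summed to 559.7 to 678.4 CPM at 2 h, 99.64 to 113.8 at 4 h, 155.6 to 270 at 8 h and 121 to 248.6 at 24 h, against 1.992 to 2.383 with PBS. Red pulp macrophage markers ran from 457.4 to 5214 CPM over the 4 times against 248.4 to 309.1. The part of these RNAs in the time course was not tested.

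Jak2 was quick to rise and fall. In Mo.6C+ its 2 libraries per time held 264.3 and 155.3 CPM at 2 h, 101.2 and 108 at 4 h, 26.35 and 53.71 at 8 h and 41.1 and 32.66 at 24 h, against 27.68 and 38.64 with PBS. The 2 h and 4 h libraries were above PBS and the later ones overlapped it or nearly so. The log2 changes were 2.66, 1.66, 0.27 and 0.16, the first pair called. In MFpc they were 2.46, 0.96, -0.04 and -0.74, again with the first pair called, though the 4 h call was lost without PBS 1 (0.92, adjusted p = 0.0626) or TNFa 2 of that time (0.74, adjusted p = 0.0877). Jak1 was called in MFpc at 2 h (1.23 ± 0.17) and 4 h (0.95 ± 0.17), and in Mo.6C+ at 2 h only of the 4 times (1.02 ± 0.21).

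Jak3 remained above PBS for longer in Mo.6C+, with changes of 1.73, 1.73, 1.33 and 1.32, all 4 called. PBS libraries held 36.48 and 51.19 CPM, and at 24 h the TNFa libraries held 106.4 and 112.4. No TNFa library of any time was within the PBS range. With 1 library left out, the 24 h call was lost in each of 4 cases (1.10 to 1.59, adjusted p up to 0.3439) and the 8 h call without PBS 1 (1.11, adjusted p = 0.1281). A lone library is assumed in such fits to vary like the other groups. In MFpc the changes of Jak3 were 1.51, 1.08, 0.95 and 0.57, of which the last was not called (adjusted p = 0.1261), but was without TNFa 2 of 24 h (0.76, adjusted p = 0.0365).

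Tyk2 fell at 8 h. In Mo.6C+ it stood at 273 and 252.6 CPM with PBS and at 88.68 and 90.36 at 8 h (-1.55 ± 0.33, adjusted p = 0.005045), and in MFpc at 113.9 and 113.5 with PBS and 53.97 and 60.6 at 8 h (-0.99 ± 0.18, adjusted p = 0.00154). At 24 h the values were 177.2 and 205.6 in Mo.6C+, higher than at 8 h but still below both PBS libraries. In MFpc they were 83.23 and 114.9, overlapping PBS. Neither change from PBS was called, which with 2 libraries per group does not show a return to the PBS level. At 2 h the 2 Mo.6C+ libraries disagreed, with 139.5 and 330.6 CPM of Tyk2 and 86.58 and 202.9 of Jak3. Tyk2 at 2 h was not called with both (-0.16) and was called lower without replicate 2 (-0.87, adjusted p = 0.01295), whereas in the screen it was 0.39 at that time.

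**Figure D5:**
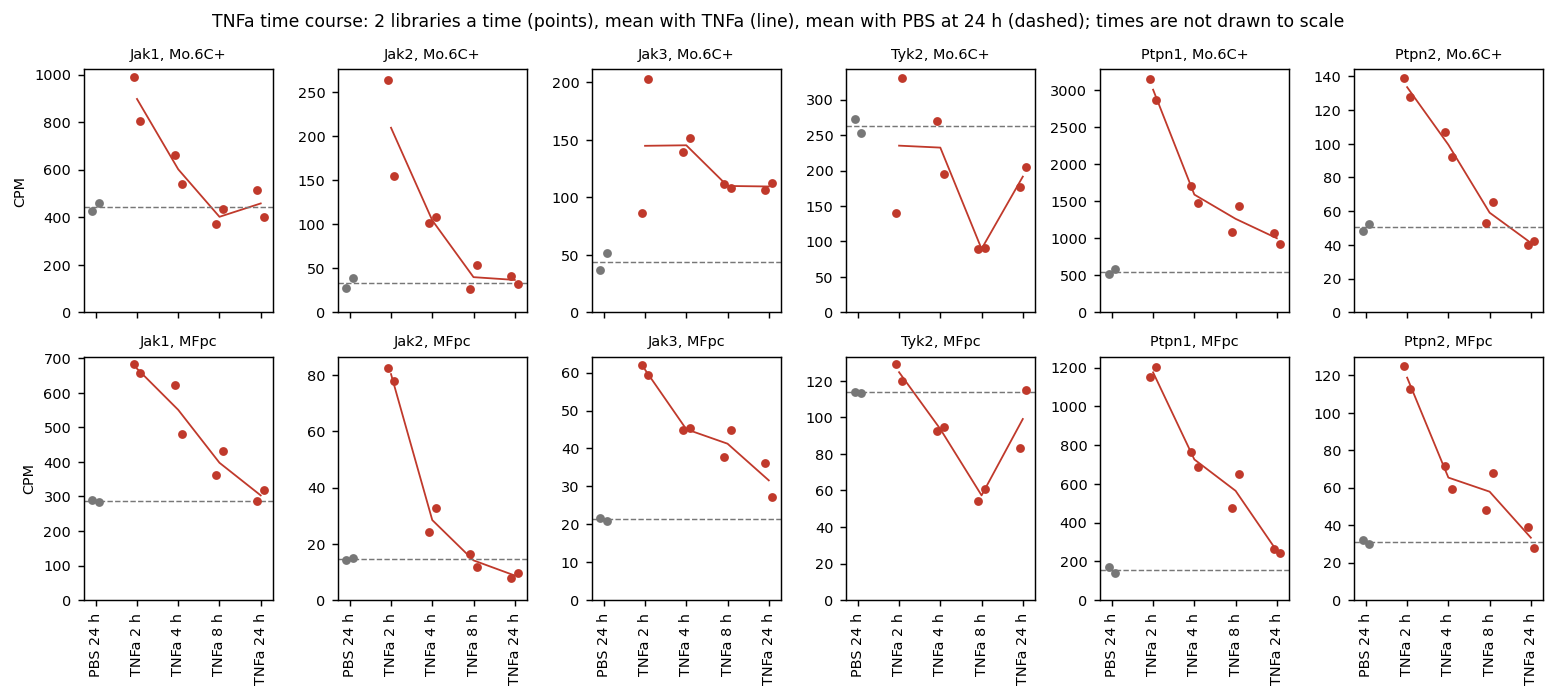
The 6 genes after TNFa in Mo.6C+ and MFpc (vertical axis, CPM) at PBS 24 h and TNFa 2, 4, 8 and 24 h (horizontal axis, not to scale). Points are the 2 libraries of a time, the line joins TNFa means, and the dashed line is the mean with PBS; Tyk2 has its lowest points at 8 h.

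The panels of the time course show Ptpn1 and Ptpn2 highest at 2 h and lower at each later time. Ptpn1 in MFpc held 1149 and 1201 CPM at 2 h, 765 and 686.3 at 4 h, 475.9 and 651.8 at 8 h and 265 and 241.8 at 24 h, against 168.8 and 137.7 with PBS. All were above PBS, and the changes were 2.94, 2.24, 1.88 and 0.73. In Mo.6C+ they were 2.45, 1.53, 1.19 and 0.86, and all were called. The 24 h calls of Ptpn1 were lost in Mo.6C+ without any 1 of the 4 libraries (0.75 to 0.98, adjusted p up to 0.3333) and in MFpc without PBS 1, PBS 2 or TNFa 1 (0.60 to 0.88, adjusted p up to 0.2787). Ptpn2 changed by 1.41, 0.98, 0.23 and -0.29 in Mo.6C+ and by 1.94, 1.08, 0.90 and 0.10 in MFpc. The first pair was called in Mo.6C+ and the first 3 in MFpc, where the 8 h call was lost without PBS 1, PBS 2 or TNFa 2 of 8 h (0.64 to 0.92, adjusted p up to 0.0824).

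With LPS, a bacterial ligand of Toll-like receptor signaling, 5 of the 6 genes rose in Mo.6C+, against 18.6% of all genes called. The PBS library 2 stood apart, with Jak3 at 3.429 CPM (12 counts) beside 38.59 and 34.84 and with Tyk2 at 66.01 beside 234.3 and 240. Jak2 was 35.35, 45.15 and 40.52 CPM with PBS and 143.5, 172.3 and 217.1 with LPS (2.14 ± 0.26, adjusted p = 0.0005735). Ptpn1 was 646.6, 515.8 and 634.4 with PBS and 1923, 2610 and 2112 with LPS (1.89 ± 0.23, adjusted p = 0.0006433). Both were separated and kept their calls with any library left out. Jak3 rose by 2.48 ± 0.66 (adjusted p = 0.02632), with 1.98 as the lowest value when 1 library was left out, and its call was lost without LPS 2 (2.44, adjusted p = 0.0826) or LPS 3 (2.22, adjusted p = 0.0851). Ptpn2 (1.11 ± 0.24, adjusted p = 0.01015) was lost without PBS 1 (1.03, adjusted p = 0.0646). Jak1 (0.84 ± 0.23, adjusted p = 0.03095) was lost without PBS 1, PBS 3, LPS 2 or LPS 3 (0.79 to 0.90, adjusted p up to 0.1361). Tyk2 was not called (0.32 ± 0.49, adjusted p = 0.7068), with LPS libraries at 110.9, 237.3 and 326.5 CPM spread over the PBS range and above it. The red pulp macrophage markers summed to 819.4 to 1591 CPM with LPS against 283.2 to 464.1 with PBS, and the neutrophil markers to 53.28 to 67.88 against 2.286 to 11.51. Their part was not tested.

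Other genes of the pathway were counted in 4 lists, to be read against the 5.76% (IL1b), 1.46% (IL6) and 8.26% (TNFa) of all tests that were increases. The first list held 28 chains of receptors that signal through Janus kinases, whether or not the chain itself binds the kinase. Tests in all types gave 74 increases and 16 decreases in 288 with IL1b (25.7% raised). The counts were 21 and 10 in 312 with IL6 (6.73%) and 102 and 20 in 312 with TNFa (32.7%). The median change of these chains in a type ran from 0.01 to 0.78, -0.37 to 0.17 and -0.13 to 0.82. Medians of all genes lay between -0.05 and 0.01, -0.05 and 0.02, and -0.21 and 0.01. The chains called most were Il4ra, the IL-4 receptor chain (21 of 41 comparisons), Csf2rb, the common beta chain (16 of 32), and Il2rg, the common gamma chain that Jak3 binds (16 of 41), all increases. Il4ra rose in MFpc with IL1b from 104.6 ± 6.653 to 740 ± 22.78 CPM (2.82 ± 0.08, adjusted p = 1.992e-15). Csf2rb rose in MFrp with TNFa from 128.1 ± 39.77 to 758.6 ± 123.6 (2.56 ± 0.26). Il2rg in GN with TNFa went from 6.763 ± 2.53 to 662.9 ± 67.12 (6.63 ± 0.27, adjusted p = 9.851e-12), in the same 3 libraries in which Tyk2 rose.

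The 7 STAT genes gave 22 increases and 6 decreases in 91 tests with IL1b (24.2% raised), 9 and 3 in 98 with IL6 (9.18%) and 38 and 6 in 98 with TNFa (38.8%). Their medians by type ran from -0.28 to 0.51, -0.29 to 0.28 and -0.32 to 1.15. Stat3, the main factor downstream of the IL6 receptor, rose in 33 of 41 comparisons, 12 of 13 with IL1b, 8 of 14 with IL6 and 13 of 14 with TNFa, with its largest called rise in MFrp with TNFa (1.66 ± 0.18). Stat6, the IL-4 factor, rose in 11 and fell in 2, GN with IL1b (-0.41) and with IL6 (-0.61).

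The 8 SOCS genes, which encode inhibitors induced by the pathway, gave 34 increases and 0 decreases in 101 tests with IL1b (33.7% raised), 7 and 1 in 108 with IL6 (6.48%) and 36 and 3 in 108 with TNFa (33.3%). Medians by type ran from 0.08 to 2.63, -0.26 to 0.14 and -0.28 to 3.00. Socs3, which blocks gp130 signaling, rose in 31 comparisons and fell in 1, GN with IL6 (-0.83 ± 0.18, adjusted p = 0.009603), the group in which Jak1 and Ptpn1 also fell. Socs1, which binds Janus kinases directly, rose in 22, none with IL6. Cish rose in 15, in GN with IL1b from 1.436 ± 1.331 to 386.5 ± 53.15 CPM (7.99 ± 0.49). The last list held 13 further genes of phosphatases, inhibitors and adaptors, so its increases are not all of inhibitors. It gave 15 increases and 6 decreases in 165 tests with IL1b (9.09% raised). The counts were 3 and 2 in 178 with IL6 (1.69%) and 30 and 10 in 178 with TNFa (16.9%). Medians by type ran from -0.20 to 0.41, -0.28 to 0.19 and -0.30 to 0.36. Usp18, an inhibitor of the type I interferon receptor, rose in 7 and fell in 4, with 1.32 ± 0.18 in pDC and -1.84 ± 0.35 in MFpc, both with TNFa. Sh2b2, an adaptor of Jak2, rose in 9 and fell in 1, with 5.29 ± 0.34 in MFpc with TNFa. Ptprc, which encodes the phosphatase CD45, rose in 8 and fell in 1.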

How the data were processed

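Libraries of 1000 sorted cells were counted per gene. Per the submitters' processing notes, the authors aligned reads with STAR 2.7.3a to mm10 and used featureCounts, and they deposited unnormalized counts for 55011 symbols, 3734 of them at 0 throughout. How strands and multiply matching reads were counted was not stated in the material at hand, so overlapping genes are uncertain. Titles gave group, time and replicate. No library duplicated another of its group (0 identical among 251 pairs, chi-square per degree of freedom 2.937 to 68.53). The 6 genes had from 12 to 20765 counts per library.

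edgeR 4.0.16 in R 4.3.3 was used for all main tests: filterByExpr, TMM factors and quasi-likelihood F-tests, with Benjamini-Hochberg correction across the genes that passed the filter and a threshold of 0.05. Adjusted p-values are edgeR's unless DESeq2 (1.42.0) is named. SE was computed as |log2 fold change| over the square root of F. All screen libraries of a type entered its fit. Cell type dependence was fitted over all screen libraries, and the lineage difference over all PBS libraries of the screen. The members, pathway lists and markers were chosen with earlier results of these data known. All 6 members are named, with up to 3 genes per list, those called in the most of the 41 comparisons (ties by symbol), and the 3 genes with the PBS pattern most like each member. One gene that this rule names is not reported here. Scripts were tested on simulated data. Alternatives were DESeq2, RLE factors, no filter, only the 2 groups compared, a replicate block, single libraries left out and, chosen after seeing the data, library totals without TMM and leaving out some of the libraries with RNA of other cells. Whether replicate numbers pair libraries was not settled, and the main fits left such pairing out.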

Additional observations from a re-analysis of the deposited data

Results flagged for a closer look

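The responses of the 6 genes differed between cell types in 15 of 18 tests, each over all terms of cell type by cytokine in 1 edgeR fit. With IL1b the adjusted p-values were 6.299e-08 for Jak1, 3.281e-12 for Jak2, 7.132e-05 for Jak3, 0.00238 for Tyk2, 6.348e-32 for Ptpn1 and 2.929e-16 for Ptpn2. With IL6 they were 0.001541 for Jak1, 0.02313 for Jak3 and 6.916e-14 for Ptpn1. With TNFa they were 4.87e-17 for Jak1, 3.41e-16 for Jak2, 6.079e-05 for Jak3, 3.599e-26 for Tyk2, 3.462e-32 for Ptpn1 and 1.118e-16 for Ptpn2.

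In 4 of 84 PBS groups 1 library lay far from the others by Dixon's criterion, which chance exceeds in about 1 in 20 groups. Jak2 in MC stood at 136.0 CPM in replicate 3 and between 106.2 and 109.6 in the others. Tyk2 in MZB stood at 167.5 in replicate 3 and between 132.7 and 133.3 in the others. Jak3 in NK was 122.6 in replicate 2 against 177.6 to 191.8, and Jak1 in Treg was 625.9 in replicate 2 against 1146 to 1277.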

How the results depend on the processing

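The total counts of calls per cytokine, time course and LPS kept within 1.5 times the main value under DESeq2, RLE factors and only the 2 groups compared where these were run. By gene and type, DESeq2 called Jak3 with IL6 in 9 types instead of 5, and with IL6 it called 2 genes in B.fo and 1 in T.8 instead of 0, and 2 instead of 1 in DC.8+ and in MFrp. With IL1b it called 2 instead of 1 in NK, T.8 and Tgd, and with TNFa 2 instead of 1 in T.8. Without a filter on low counts, IL6 gave 20 calls instead of 13. With library totals, LPS gave 3 calls instead of 5, and Tyk2 with TNFa in Mo.6C+ turned to -0.04 (-0.042957). That scaling moved the median of all genes in GN by -0.78 with TNFa and -0.44 with IL1b, in Mo.6C+ by -0.43 with TNFa and -0.42 with LPS. For the totals with 1 library left out, only the comparisons that used that library were refitted. All other calls were kept from the main fits, which limits how far these totals could move. With 1 library left out, IL1b gave 27 to 30 calls, IL6 11 to 14, TNFa 39 to 43, the time course 11 to 15 in Mo.6C+ and 12 to 16 in MFpc, and LPS 3 to 5. Of the single calls, 61 of 84 in the screen, 23 of 29 in the time course and 2 of 5 with LPS kept their side of the threshold in every such fit. A replicate block gave 25, 12 and 40 calls with IL1b, IL6 and TNFa, 13 and 15 over time in Mo.6C+ and MFpc, 4 with LPS and 4 between lineages. The median correlation of deviations between libraries of 1 replicate number ran from -0.145 to 0.035 over the fits. In no fit did every library correlate best with its own number, but 7 of 12 did in T.4 and in MZB and 6 of 11 in NK. The highest correlation between libraries of 1 number was 0.328, in T.8. Pairing by number was therefore not shown, and this check cannot exclude it.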
